A study of Mus musculus with 12 samples.

Results

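Expression of 35 glial genes was followed in the thalamus of newborn mice. The set held 24 genes of astrocytes and radial glia and 11 genes of the oligodendrocyte lineage, taken by symbol from a list of known markers, out of 55359 genes counted. The list was drawn up with earlier results of these data known. All 35 were found, all passed the filter on low counts that left 17501 genes for testing, and none was at 0 counts in any library. The tissue was the ventroposterior medial nucleus (VPM), the thalamic relay for touch from the face, microdissected at postnatal day 0 from slices of 300 µm. Its territory called PMBSF receives input from the whisker pad and its territory called ALBSF receives input from the upper lip. Control pups (Ctrl) gave 4 PMBSF and 4 ALBSF libraries, and pups given the treatment that the labels call embWPC, a name they do not spell out, gave 4 ALBSF libraries. Each library pooled tissue from 5 brains, so the replicates are pools and no value belongs to a single pup. The labels name no strain, sex or transgene for any group. RNA of the whole tissue was sequenced, so fewer cells of a type and less RNA per cell cannot be told apart in any value given here.

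Radial glia are the progenitors that line the embryonic ventricles, and around birth many of them turn into astrocytes, which take up glutamate, couple through gap junctions and secrete lipoproteins. Oligodendrocytes arise from progenitors that carry the platelet-derived growth factor receptor alpha and the transcription factors Olig1, Olig2 and Sox10. These progenitors pass through a committed stage marked by Gpr17, Bcas1 and Enpp6 before they make myelin proteins such as Mbp and Cnp. In the newborn rodent forebrain progenitors are common and myelin is scarce.

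Library totals ran from 28457046 to 34512840 counts. Levels are given as CPM (counts scaled to a common library total) after TMM scaling, and the thalamic transcripts Slc17a6 and Lef1 stood at 336 to 430 CPM and 85.9 to 120 CPM over the 12 libraries. Gbx2, another thalamic transcript, was low and less even. It stood at 5.43 to 6.81 CPM in Ctrl ALBSF, 2.88 to 7.7 CPM in Ctrl PMBSF and 1.86 to 14.9 CPM in embWPC ALBSF. Some libraries carried more RNA of neighbouring tissues. The 14 meningeal fibroblast markers, none of them at 0 in a control library, summed to 21.9 to 24.4 CPM in Ctrl ALBSF and to 14.4 to 17.6 CPM in embWPC ALBSF, but to 19.04, 110, 43.7 and 38.5 CPM in Ctrl PMBSF libraries 1 to 4. The 11 ependymal and choroid plexus markers summed to 122.5 CPM in Ctrl ALBSF library 2 against 24.7 to 35.1 CPM in the other 3 of that group. In Ctrl PMBSF library 2 they summed to 58.3 CPM, against 29.6 to 34.6 CPM in the other 3 of its group. The 12 microglial markers summed to 90.02 to 152 CPM in Ctrl ALBSF, 76.8 to 166 CPM in Ctrl PMBSF and 85.9 to 102 CPM in embWPC ALBSF. The 10 markers of GABAergic neurons summed to 5.16 to 54.6 CPM in Ctrl ALBSF, 10.6 to 44.6 CPM in Ctrl PMBSF and 7.68 to 38.4 CPM in embWPC ALBSF, and the 20 endothelial and mural markers to 172 to 285 CPM over all libraries. The part of these tissues in the glial values was not tested, and the results below give the values without the libraries concerned where these move them.

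Levels between genes were compared per kilobase of the canonical transcript, as the mean over the 12 libraries. Counts are per gene, and for some genes all exons together are much longer than that transcript. Mbp has 9745 bases of exon against 2155 in the canonical transcript, and Lhfpl3 has 3229 against 3115. The order of genes can therefore depend on the length used. On that scale Fabp7, the brain fatty acid binding protein of radial glia, stood highest at 7780 CPM per kb, above the lipoprotein Apoe at 516 and the progenitor factor Olig1 at 128 CPM per kb. Next came a group of astroglial genes at neighbouring levels, with the lipoprotein-associated phospholipase Pla2g7 at 69.2, the Notch effector Hes1 at 65.1, the secreted chaperone Clu at 60.9, the filament gene Vim at 53.8 and the glutamate transporter Slc1a3 at 46.8 CPM per kb. The astroglial genes spanned a wide range, with Aldoc at 45.1, Aldh1l1 at 22.9 and Gja1 at 12.4 CPM per kb above a group at the low end. The progenitor filament gene Nes stood at 2.31, the water channel gene Aqp4 at 2.46, the glutamate transporter Slc1a2 at 2.25, the connexin gene Gjb6 at 0.903 and the filament gene Gfap at 0.307 CPM per kb. Within the oligodendrocyte lineage the order ran from Olig1 through Cnp (39.2), Olig2 (19.5), Mbp (14.9) and Lhfpl3 (10.6) to Gpr17 (1.54) and Enpp6 (0.233 CPM per kb). Pdgfra (3.40) and Sox8 (3.31 CPM per kb) were next to each other in that order and their levels were not told apart. Fabp7 alone made up most of the astroglial sum, with 4714 to 10900 CPM in single libraries against 2099 to 2978 CPM for the other 23 astroglial genes together.

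The first question is whether glial genes differ between the whisker and lip territories of control pups at birth. In the oligodendrocyte lineage Sox10 fell and Enpp6 rose in PMBSF, and these were the only calls among the 35 genes at an adjusted p under 0.05 in edgeR's quasi-likelihood test. Of all genes tested, 1.62% were called, with 0.811% in each direction. The members were chosen with earlier results of these data known, among them a rise and a fall in this lineage between these territories. Shares of all genes are therefore given for scale, here and below, and are not a test of the list. All 6 progenitor genes had a negative difference under every scaling tried, with a median of -0.39 on the log2 scale, and both myelin genes had a positive one. The median over the 11 lineage genes was -0.33, against 0.00 over all genes tested.

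Sox10, a transcription factor kept from the progenitor to the myelinating cell (ENSMUSG00000033006, GRCm39 chromosome 15, 79039108 to 79049469, minus strand), measured 7.44, 8.79, 9.13 and 7.14 CPM in Ctrl ALBSF libraries 1 to 4. It measured 4.92, 5.80, 5.04 and 4.68 CPM in Ctrl PMBSF. All 4 PMBSF libraries lay below all 4 ALBSF libraries, on 149 to 189 counts against 216 to 264. The log2 difference was -0.67 ± 0.13 (SE, n = 4 per group), a fold of 0.629, with an adjusted p of 0.0189 by edgeR. The call was lost when Ctrl ALBSF library 2 or 3 or Ctrl PMBSF library 3 or 4 was left out, at adjusted p values of 0.0701, 0.0839, 0.0524 and 0.0565 by edgeR, while the log2 difference over all 8 such omissions ranged from -0.74 to -0.61. It was also lost when libraries were scaled by their totals alone (log2 difference -0.57, adjusted p 0.131).

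The other progenitor genes had smaller differences that did not pass the test. Pdgfra, the growth factor receptor of the progenitors, measured 29.01, 24.9, 28.02 and 21.2 CPM in Ctrl ALBSF and 19.2, 19.8, 19.4 and 16.4 CPM in Ctrl PMBSF. The groups did not overlap, at -0.46 ± 0.13 on the log2 scale with an adjusted p of 0.115 by edgeR, and it was called by DESeq2 (adjusted p 0.0330) and by edgeR with no count filter (adjusted p 0.0398). Pdgfra is also carried by meningeal fibroblasts, and PMBSF library 2, which had the highest meningeal sum, also had the highest Pdgfra level of its group; the part of that tissue in the Pdgfra values was not tested. Olig1 and Olig2, helix-loop-helix factors of the lineage, were at 263 to 361 and 44.7 to 59.1 CPM in Ctrl ALBSF and at 238 to 261 and 38.5 to 44.4 CPM in Ctrl PMBSF. Their log2 differences were -0.34 ± 0.15 and -0.33 ± 0.13, with no overlap between the groups and adjusted p values of 0.361 and 0.296 by edgeR. Sox8, a relative of Sox10, had a difference of -0.45 ± 0.14 without overlap (11.2 to 14.3 against 7.05 to 10.7 CPM, adjusted p 0.180 by edgeR). Lhfpl3, a membrane protein gene of progenitors, did overlap, with 29.7 to 40.2 against 27.2 to 36.6 CPM and a difference of -0.15 ± 0.13.

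The committed-stage genes went different ways. Gpr17, a receptor of cells that leave the progenitor state, measured 11.6, 9.50, 9.89 and 8.53 CPM in Ctrl ALBSF and 6.62, 6.38, 5.99 and 7.41 CPM in Ctrl PMBSF. All PMBSF libraries were lower, by a log2 difference of -0.58 ± 0.19, with an adjusted p of 0.184 by edgeR, or 0.0435 when only the 8 control libraries were fitted. Gpr17 lies opposite exons of Lims2 on the other strand, and since the strand setting of the counting is not stated their reads cannot be told apart. Bcas1 had a difference of -0.03 ± 0.18 and overlapped. Enpp6, a choline phosphodiesterase of newly forming oligodendrocytes (ENSMUSG00000038173, GRCm39 chromosome 8, 47439919 to 47549797, plus strand), went the other way. It measured 0.761, 0.633, 0.865 and 0.893 CPM in Ctrl ALBSF and 1.19, 1.60, 1.85 and 1.54 CPM in Ctrl PMBSF. All 4 PMBSF libraries were higher, 1.95-fold on average (log2 0.96 ± 0.22, adjusted p 0.0459 by edgeR). This call rested on 18 to 27 counts per library against 44 to 66, and it was lost in 7 of the 8 fits that left out a library, all but the fit without Ctrl PMBSF library 1, with adjusted p values from 0.0386 to 0.143. It was also lost with only the 8 control libraries in the fit (adjusted p 0.0878) or with no count filter (adjusted p 0.0905 by edgeR).

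The myelin genes showed no call. Mbp, the myelin basic protein gene, measured 23.02, 31.97, 26.5 and 25.7 CPM in Ctrl ALBSF and 22.3, 37.4, 34.3 and 37.8 CPM in Ctrl PMBSF. The groups overlapped, at 0.30 ± 0.16 on the log2 scale. PMBSF library 1 was the lowest of all 8. Without it the difference was 0.44 (adjusted p 0.121 by edgeR). Cnp, a phosphodiesterase of myelin-forming cells that shares exon bases with Dnajc7 on the other strand, had a difference of 0.15 ± 0.10. Counted over the lineage, 6 of the 11 genes (Pdgfra, Olig1, Olig2, Sox10, Sox8 and Gpr17) were lower in PMBSF without overlap, and 1, Enpp6, was higher without overlap. Over all genes tested, 3.62% were lower and 4.66% higher without overlap, 8.28% in all.

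**Figure D1:**
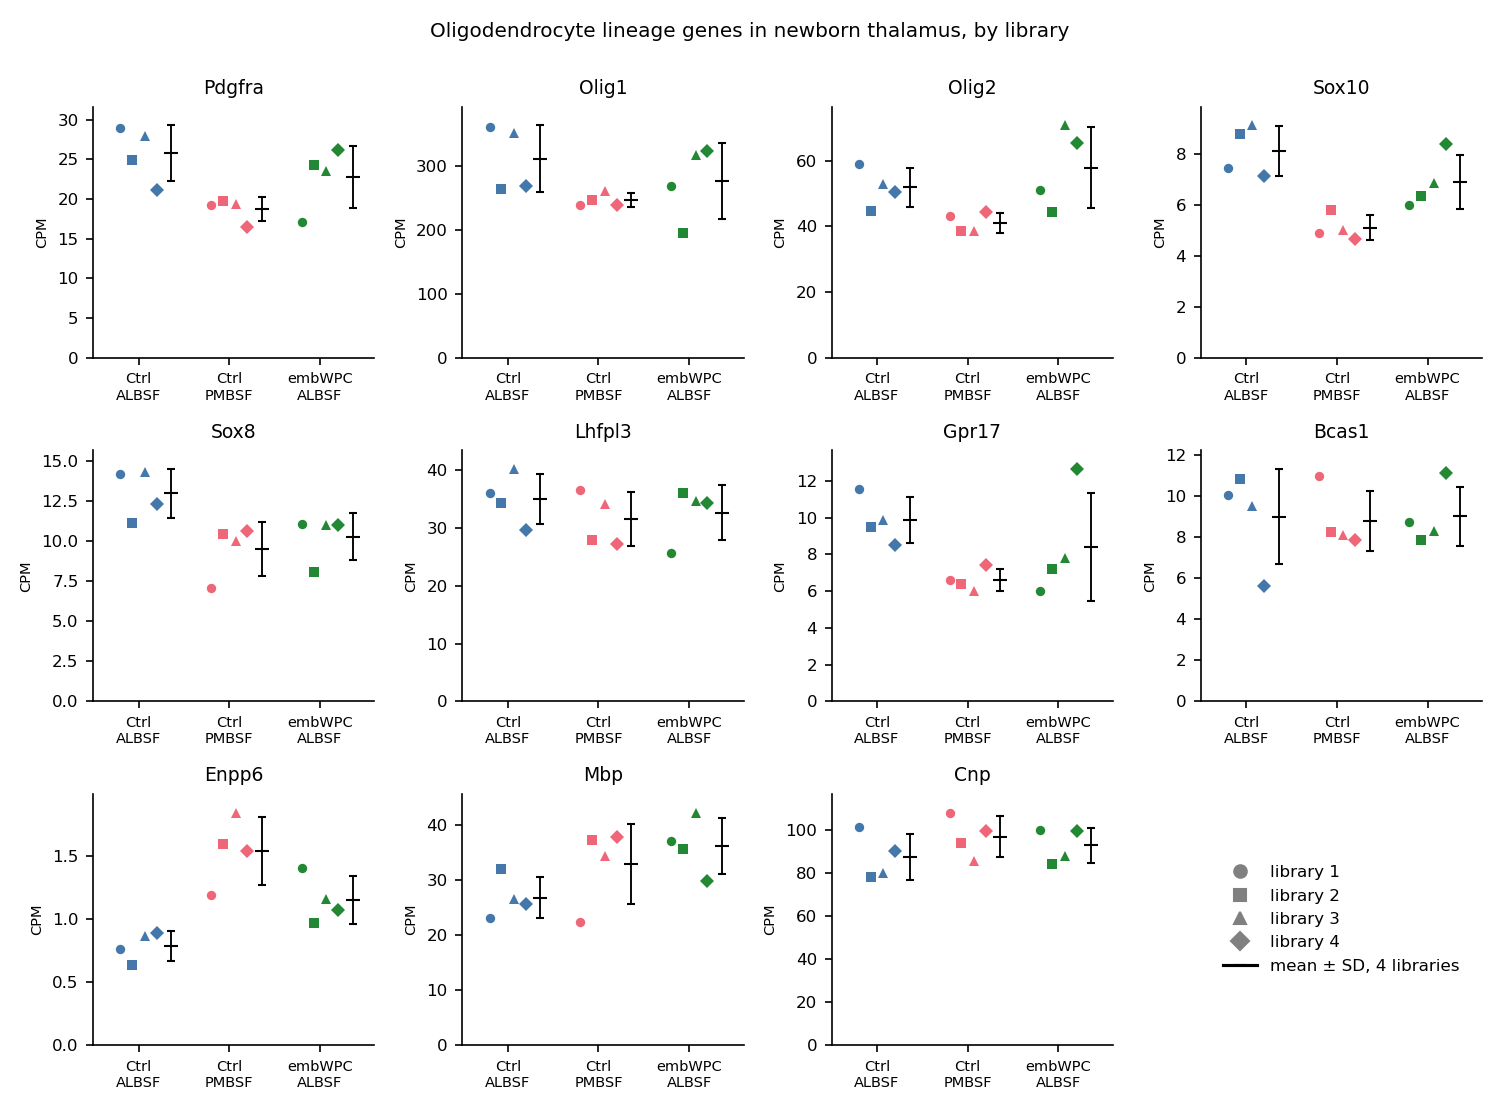
CPM of the 11 oligodendrocyte lineage genes (vertical axes from 0) in each library of the 3 groups, with marker shapes for the library number and black bars for the mean ± SD of 4 libraries. Sox10 lies between 4.68 and 5.80 CPM in Ctrl PMBSF, below all Ctrl ALBSF libraries, while Enpp6 lies above them.

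The control libraries carry numbers, and the ALBSF and PMBSF libraries of a number deviated together from their group means (correlations of 0.317 to 0.571 across genes). The labels do not say what a number stands for. With the number as a block in the edgeR fit, 5.04% of genes were called (2.43% higher and 2.61% lower), and 6 of the 35 members. Of these, 5 were lower in PMBSF, with Pdgfra at -0.46 (adjusted p 0.00423), Sox10 at -0.67 (adjusted p 0.00530), Olig2 at -0.33 (adjusted p 0.0156), Gpr17 at -0.58 (adjusted p 0.0161) and the astroglial factor Sox9 at -0.31 (adjusted p 0.0270, all by edgeR). Enpp6 was higher at 0.96 (adjusted p 0.0432 by edgeR). Within numbers, Sox10 differed by -0.60, -0.60, -0.86 and -0.61 on the log2 scale, so its size was alike in 3 of the 4. Sox8 was uneven, with -1.01 in number 1 and -0.10 in number 2. The genes without overlap between the groups have 1 sign in all 4 numbers by construction. Cnp, which did overlap, was also higher in PMBSF in all 4, as were 14.4% of all genes tested.

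**Figure D2:**
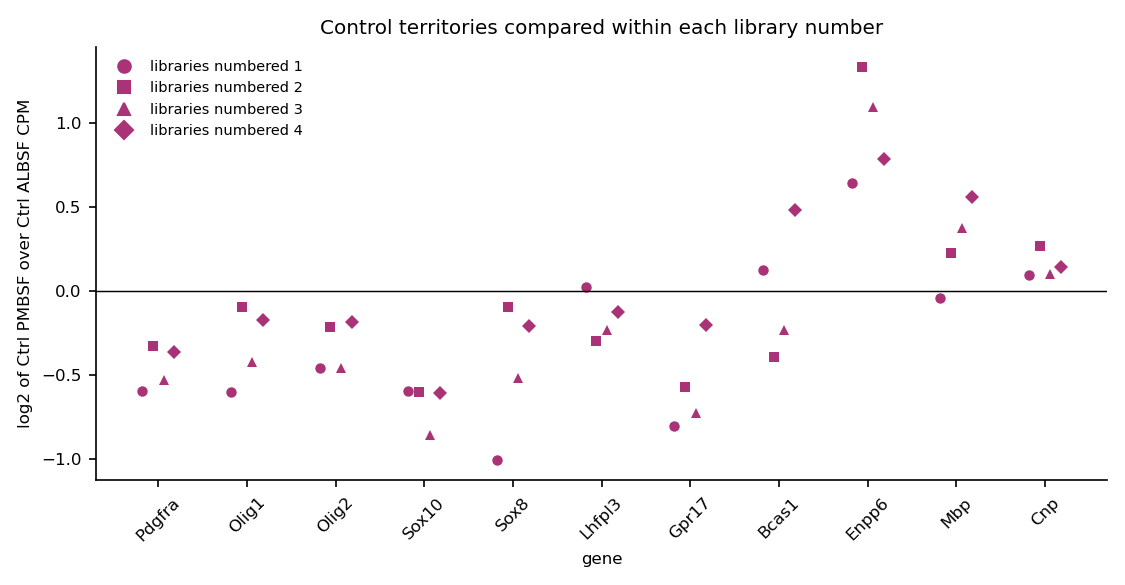
Log2 ratio of Ctrl PMBSF to Ctrl ALBSF CPM within each library number (vertical axis) for the 11 oligodendrocyte lineage genes; each marker is 1 number. Pdgfra, Olig1, Olig2, Sox10, Sox8 and Gpr17 are below 0 in all 4 numbers, and Enpp6 lies between 0.64 and 1.33.

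No astroglial gene was called between the control territories by edgeR with the count filter and without the block, against 1.62% of all genes. Without the count filter Gfap was called (adjusted p 0.0367 by edgeR), and with the block Sox9 was. At an unadjusted p under 0.05 there were 2, Gfap higher and Sox9 lower, against 11.8% of all genes (6.1% higher and 5.71% lower). DESeq2 and voom called none either, where they called 3.01% and 2.53% of all genes. The differences were small, with a median of -0.12, and 18 of the 24 were negative. Scaling by library totals alone, which put the median of all genes at 0.10 in place of 0.00, left 13 of the 24 negative. None of the 24 genes was without overlap between the groups. Slc1a2, Fabp7, Sox9, Hes5 and Mt2, 20.8% of the 24, were lower in PMBSF in all 4 numbers, against 12.7% of all genes tested, and Gfap (4.17%) was higher in all 4, against 14.4%.

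Among the regulators, Sox9, a factor that starts and keeps the glial programme, measured 63.9, 62.3, 60.7 and 52.7 CPM in Ctrl ALBSF and 43.2, 53.8, 48.6 and 47.3 CPM in Ctrl PMBSF. Ctrl PMBSF library 2 lay just above the lowest ALBSF library and the rest were below, at -0.31 ± 0.09 on the log2 scale (adjusted p 0.146 by edgeR). Fabp7 had a difference of -0.40 ± 0.22, from 8612 ± 1616 to 6524 ± 760 CPM (mean ± SD, n = 4). The Notch effectors differed in sign, with Hes5 at -0.17 ± 0.10 and Hes1 at 0.19 ± 0.15, and Hopx, a homeodomain protein of radial glia, was at 0.27 ± 0.22.

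Genes for glutamate uptake and metabolism were level or slightly lower. Slc1a3 and Slc1a2, the glutamate transporters, had differences of -0.18 ± 0.14 and -0.25 ± 0.12. The folate enzyme Aldh1l1 (0.00 ± 0.09) and the glycolytic enzyme Aldoc (0.05 ± 0.10) were close to 0, and Pla2g7 was at -0.27 ± 0.19. Of the membrane genes, Gja1, the main astrocyte connexin, Ttyh1, a membrane protein of glia, and S1pr1, a sphingosine phosphate receptor, lay between -0.07 and 0.02, and Aqp4 at -0.12 ± 0.23. The secreted genes Apoe (-0.27 ± 0.14), Agt, the angiotensinogen gene (-0.30 ± 0.26), and Clu (-0.04 ± 0.12) were all negative, and Agt shares exon bases with Cog2 and Capn9 on the other strand. Vim was the steadiest of the genes within the groups of control libraries (coefficient of variation 5.16% in Ctrl ALBSF and 3.38% in Ctrl PMBSF) and had a difference of 0.00 ± 0.07. Nes, the other filament gene of progenitors, was at -0.13 ± 0.18.

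Gfap and Gjb6 had the widest spread in Ctrl PMBSF. Gfap measured 0.351, 5.58, 0.588 and 1.26 CPM in Ctrl PMBSF libraries 1 to 4 and 0.265, 0.352, 0.277 and 0.826 CPM in Ctrl ALBSF. The groups overlapped, while Gfap was higher in PMBSF in all 4 numbers, by 0.41, 3.99, 1.09 and 0.60 on the log2 scale. The fitted log2 difference was 2.15 ± 0.75 (adjusted p 0.226 by edgeR), and without PMBSF library 2 it was 0.75 ± 0.56 (adjusted p 0.678 by edgeR). Gjb6 measured 1.32, 5.09, 1.79 and 1.98 CPM in Ctrl PMBSF and 0.830 to 1.83 CPM in Ctrl ALBSF, and its difference went from 0.83 ± 0.45 to 0.25 ± 0.39 without that library. It was higher in PMBSF in 3 of the 4 numbers and lower in number 1. PMBSF library 2 is the one with the meningeal sum of 110 CPM. It also had the highest ependymal and choroid plexus (58.3 CPM), vascular (285 CPM) and GABAergic (44.6 CPM) sums of its group. The part of any of these tissues in the Gfap and Gjb6 values was not tested. Gfap rested on 8 to 25 counts in Ctrl ALBSF and on 13 to 182 in Ctrl PMBSF.

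The second question is which glial genes differ in the lip territory after embWPC. No member was called by edgeR, where 0.0629% of all genes were, and 8 of 35 had an unadjusted p under 0.05 (2 higher and 6 lower), against 9.22% of all genes (4.15% higher and 5.07% lower). DESeq2 called 1 member, Mt3, and 1.1% of all genes, and voom called no member and 0.429% of all genes. This comparison uses the same Ctrl ALBSF libraries as the one between the territories, so the differences of both share their noise. The smallest p was that of Mt3. All 3 metallothionein genes had a negative difference under every scaling tried, as they also had between Ctrl PMBSF and Ctrl ALBSF, where Mt1 was at -0.31 ± 0.20, Mt2 at -0.55 ± 0.27 and Mt3 at -0.22 ± 0.20. Metallothioneins are small cysteine-rich proteins that bind zinc and copper. Mt1 and Mt2 are induced by metals and glucocorticoids, and Mt3 is the brain form.

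The 3 genes lie next to each other on chromosome 8, and in GRCm39 Mt3 (ENSMUSG00000031760) spans 94879220 to 94881088, Mt2 94898819 to 94900207 and Mt1 94905710 to 94906955, all on the plus strand. Metal induction of this family acts through metal response elements whose core is TGCACNC or TGCGCNC. The start regions are shown because the windows of the 3 genes differ in how many such cores they hold. Each is the RefSeq window of GRCm38.p6 from 250 bases before to 50 bases after the start, read 5′ to 3′, with matches to the core on either strand in capitals.
Mt1 (chr8:94178839-94179138, plus strand): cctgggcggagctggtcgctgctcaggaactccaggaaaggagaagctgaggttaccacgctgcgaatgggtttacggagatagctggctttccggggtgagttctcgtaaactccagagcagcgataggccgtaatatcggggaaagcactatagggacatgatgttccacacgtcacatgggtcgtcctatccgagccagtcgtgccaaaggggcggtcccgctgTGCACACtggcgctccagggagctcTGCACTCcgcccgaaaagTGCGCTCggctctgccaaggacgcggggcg
Mt2 (chr8:94172368-94172667, plus strand): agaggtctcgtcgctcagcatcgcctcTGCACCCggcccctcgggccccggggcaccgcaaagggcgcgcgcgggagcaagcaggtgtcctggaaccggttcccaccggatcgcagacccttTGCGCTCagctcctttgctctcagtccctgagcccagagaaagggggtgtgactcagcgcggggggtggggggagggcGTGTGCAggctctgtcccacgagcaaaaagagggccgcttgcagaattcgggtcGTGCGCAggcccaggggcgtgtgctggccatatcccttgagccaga
Mt3 (chr8:94152357-94152656, plus strand): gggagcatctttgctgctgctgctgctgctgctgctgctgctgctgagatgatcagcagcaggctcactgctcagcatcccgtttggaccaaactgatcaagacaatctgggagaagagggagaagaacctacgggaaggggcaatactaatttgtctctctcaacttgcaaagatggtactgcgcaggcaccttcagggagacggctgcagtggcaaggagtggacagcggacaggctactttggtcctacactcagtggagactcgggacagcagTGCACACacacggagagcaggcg
The Mt1 window held 3 matches and the Mt2 window held 4, while the Mt3 window held 1, which began 28 bases after the start. These counts belong to the RefSeq start used for each gene, and windows at other starts were not searched. Of 32851 such windows in the table, 25.7% held at least 1 match and 7.11% at least 2. Of the 35 glial genes, 25 were in the table, and 7 of them held a match. A match is a run of letters and not evidence of binding.

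Mt3 measured 15.65, 13.7, 12.7 and 13.95 CPM in Ctrl ALBSF libraries 1 to 4 and 8.32, 6.43, 8.44 and 6.24 CPM in embWPC ALBSF. All embWPC libraries lay below all control ALBSF libraries, as did 2.7% of all genes, and 5.74% did not overlap in either direction. The log2 difference was -0.93 ± 0.21 with a 95% interval of -1.37 to -0.48, a fold of 0.525, and the adjusted p was 0.107 by edgeR. It passed the threshold with DESeq2 (adjusted p 0.00383), with no count filter (0.00291) and with only the 8 libraries compared (0.0322, both by edgeR), and missed it with voom (0.0931) and in all 8 fits that left out a library (0.200 to 0.277). In those 8 fits the log2 difference stayed between -1.001 and -0.85. Ctrl PMBSF was spread over both ranges, at 17.15, 7.52, 9.46 and 13.9 CPM.

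Mt1, the most abundant of the family, had a log2 difference of -0.35 ± 0.20 between embWPC and Ctrl ALBSF, with 24.3 to 39.7 against 14.02 to 31.2 CPM and wide overlap. Mt2 was at 1.12 to 1.55 CPM in Ctrl ALBSF and 0.678 to 1.14 CPM in embWPC ALBSF, a difference of -0.53 ± 0.27 (adjusted p 0.576 by edgeR) on 21 to 44 counts. The coding parts of the family are alike and the treatment of reads that map to several places is not stated, so the split between Mt1 and Mt2 is uncertain. Mt2 also shares exon bases with Gm45774 on the other strand. Of 16 other genes of the metal and glucocorticoid response, 15 were tested and none was called in any comparison; their median difference between embWPC and Ctrl ALBSF was -0.07.

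**Figure D3:**
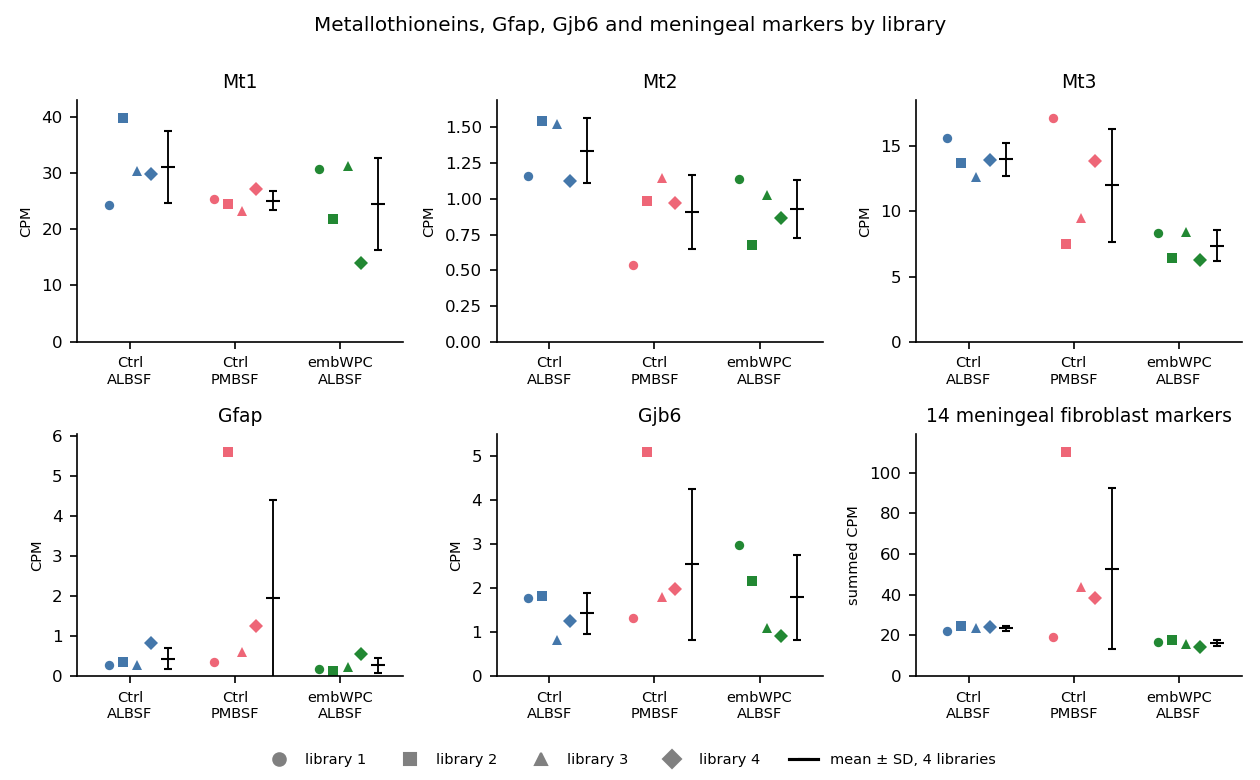
CPM (vertical axes from 0) of the 3 metallothionein genes, Gfap and Gjb6, and the summed CPM of 14 meningeal markers, in each library of the 3 groups, with the mean ± SD of 4 libraries in black (for Gfap the lower end is cut at 0). The embWPC libraries lie between 6.24 and 8.44 CPM for Mt3, and Ctrl PMBSF library 2 is the highest for Gfap, Gjb6 and the meningeal sum.

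The other astroglial genes differed little between embWPC and Ctrl ALBSF. The median over the 24 was -0.17, against -0.01 over all genes, and 19 were negative. Library 2 of embWPC ALBSF was the lowest of its group for 14 of the 24 astroglial and 6 of the 11 oligodendrocyte lineage genes. The share of all genes for which it was the lowest was not computed. Leaving out this library, or any other, gave astroglial medians between -0.20 and -0.07. Sox9 had a difference of -0.24 ± 0.09, Clu -0.27 ± 0.12, Vim -0.16 ± 0.07 and Pla2g7 -0.42 ± 0.19, each with an unadjusted p under 0.05 and an adjusted p between 0.459 and 0.536 by edgeR. Of the transporters and connexins, Slc1a3 (-0.01 ± 0.14) and Gja1 (-0.01 ± 0.15) were near 0, while Slc1a2 was at -0.16 ± 0.12 and Gjb6 at 0.32 ± 0.46. Aldh1l1, Aldoc, S1pr1 and Ttyh1 lay between -0.08 and 0.12. The radial glial gene Fabp7 was at -0.33 ± 0.22 with a wide spread among the embWPC libraries, which measured 7985, 5079, 9718 and 4714 CPM. Hes1 (0.25 ± 0.15) and Agt (0.18 ± 0.26) had positive differences, and Hes5 (-0.20 ± 0.10), Hopx (-0.24 ± 0.23), Nes (-0.37 ± 0.18), Aqp4 (-0.18 ± 0.23) and Apoe (-0.06 ± 0.14) negative ones. Gfap was low in both groups, at 0.129 to 0.550 CPM in embWPC ALBSF.

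In the oligodendrocyte lineage, the embWPC libraries were compared with both control territories. Sox10 measured 6.005, 6.36, 6.85 and 8.41 CPM in the embWPC libraries, against 7.14 to 9.13 in Ctrl ALBSF and 4.68 to 5.80 in Ctrl PMBSF. Its log2 difference was -0.23 ± 0.13 to Ctrl ALBSF (adjusted p 0.618) and 0.44 ± 0.13 to Ctrl PMBSF (adjusted p 0.347, both by edgeR), and it overlapped with the first and not with the second. Of all genes, 2.35% were higher and 2.38% lower than Ctrl PMBSF without overlap, 4.73% in all. Enpp6 measured 1.41, 0.969, 1.16 and 1.07 CPM in embWPC ALBSF, above all Ctrl ALBSF libraries, as were 3.04% of all genes. The difference to Ctrl ALBSF was 0.54 ± 0.23 (adjusted p 0.500 by edgeR) and that to Ctrl PMBSF was -0.42 ± 0.22. Mbp was at 37.2, 35.7, 42.3 and 29.9 CPM in embWPC ALBSF, with a difference of 0.44 ± 0.16 to Ctrl ALBSF (adjusted p 0.394 by edgeR), higher in 3 of 4 libraries than the highest control ALBSF library at 31.97 CPM. Sox8 was the only lineage gene that lay below Ctrl ALBSF without overlap, as did 2.7% of all genes. It measured 8.08 to 11.04 CPM against 11.15 to 14.29 CPM in Ctrl ALBSF (difference -0.34 ± 0.14, adjusted p 0.508 by edgeR). Pdgfra (-0.18 ± 0.13), Olig1 (-0.17 ± 0.15), Olig2 (0.16 ± 0.13), Gpr17 (-0.23 ± 0.19), Lhfpl3 (-0.10 ± 0.13), Bcas1 (0.00 ± 0.18) and Cnp (0.09 ± 0.10) all overlapped.

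The remaining comparison sets the treated lip territory against the untreated whisker territory. No member was called by edgeR, where 0.00571% of all genes were, or by DESeq2 (0.423% of all genes) or voom (0.00571%), and 7 had an unadjusted p under 0.05 (3 higher and 4 lower), against 9.47% of all genes (4.11% higher and 5.35% lower). It shares its libraries with both other comparisons. All 6 progenitor genes had a positive difference (5 with scaling by library totals alone, where Lhfpl3 was at -0.02), with a median of 0.22. Olig2 measured 51.1, 44.2, 70.8 and 65.5 CPM in embWPC ALBSF against 38.5 to 44.4 CPM in Ctrl PMBSF. The fitted difference was 0.49 ± 0.13 on the log2 scale (adjusted p 0.298 by edgeR), and embWPC library 2 lay just under the highest PMBSF library. Pdgfra was at 0.28 ± 0.13, Gpr17 at 0.36 ± 0.19, Olig1 at 0.16 ± 0.15, Sox8 at 0.11 ± 0.14 and Lhfpl3 at 0.05 ± 0.13. Mt3 was lower at -0.71 ± 0.21 (adjusted p 0.347 by edgeR), and without Ctrl PMBSF library 1 this was -0.47 ± 0.18. Gfap was at -2.78 ± 0.79 (adjusted p 0.326 by edgeR) and at -1.37 ± 0.58 without Ctrl PMBSF library 2. Hopx was at -0.51 ± 0.22. The median over the 24 astroglial genes was 0.00.

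**Figure D4:**
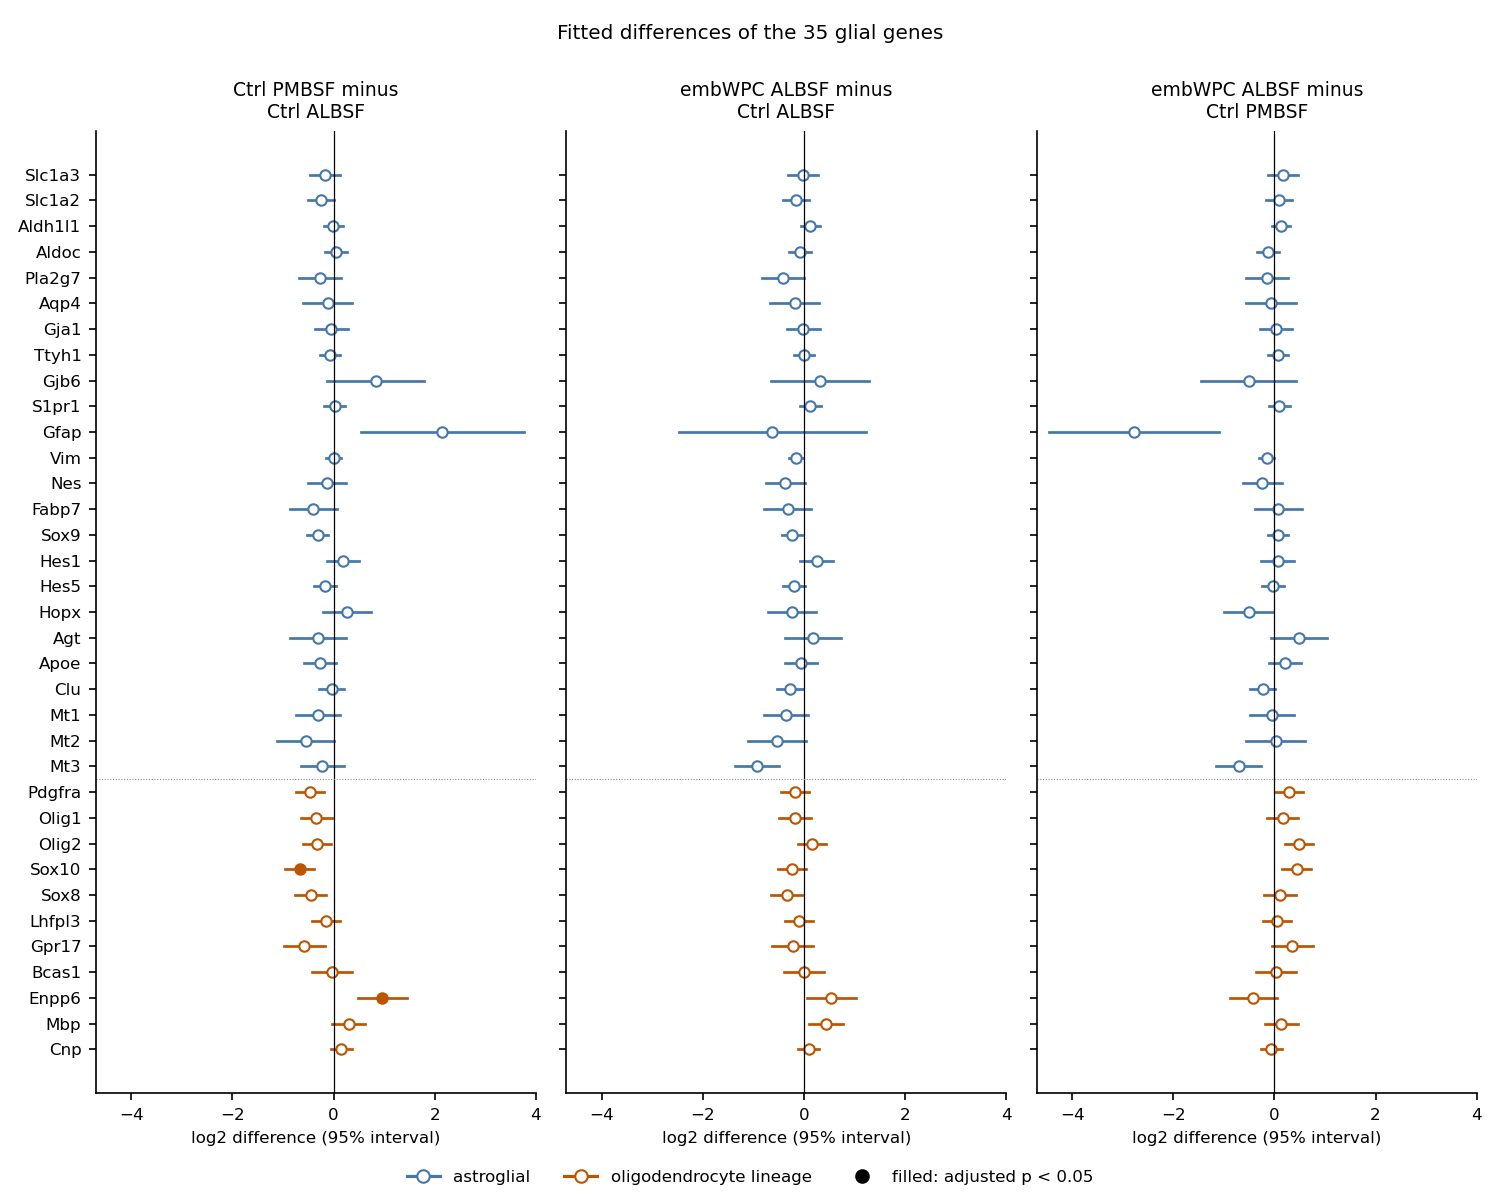
Fitted log2 differences (horizontal axis) with 95% intervals for the 35 genes in the 3 comparisons, astroglial genes in blue and oligodendrocyte lineage genes in orange. Only Sox10 and Enpp6 in the first panel are filled, which marks an adjusted p under 0.05, and Gfap has the widest interval in each panel.

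Wider gene lists gave few calls. Of 54 further astroglial genes, all tested, 1 fell in Ctrl PMBSF, Atp1b2, a sodium pump subunit of astrocytes, from 87.5 ± 2.1 to 63.3 ± 10.4 CPM (mean ± SD, n = 4; log2 -0.47 ± 0.11, adjusted p 0.0381 by edgeR). In that comparison 42 of the 54 were negative, with a median of -0.21, and 5 were lower without overlap (3.62% of all genes tested) and 0 higher (4.66%). At an unadjusted p under 0.05 by edgeR 1 was higher and 11 lower, against 6.1% and 5.71% of all genes. DESeq2 called 1 higher and 2 lower, against 3.01% of all genes in either direction. The replicate block called 1 higher and 6 lower, against 2.43% and 2.61% of all genes. None of the 54 was called by edgeR in either comparison with embWPC ALBSF, with 5 and 3 at an unadjusted p under 0.05 (9.22% and 9.47% of all genes). DESeq2 called 1 and 0 of them there, against 1.1% and 0.423% of all genes. Of 30 further oligodendrocyte lineage genes 22 were tested, and none was called in any comparison by edgeR, with medians of -0.10, -0.11 and -0.02. At an unadjusted p under 0.05 by edgeR 2 were higher and 6 lower in Ctrl PMBSF than in Ctrl ALBSF, against 6.1% and 5.71% of all genes. In embWPC ALBSF 0 were higher and 4 lower than in Ctrl ALBSF (4.15% and 5.07%). Against Ctrl PMBSF 1 was higher and 1 lower (4.11% and 5.35%). DESeq2 called 1, 1 and 0, where it called 3.01%, 1.1% and 0.423% of all genes. With the replicate block 4 of the 22 were called between the control territories, 1 higher and 3 lower in PMBSF, against 2.43% and 2.61% of all genes. Of 26 Notch pathway genes, whose signalling keeps progenitors undifferentiated, 1 rose in Ctrl PMBSF, the coactivator Maml3, from 1.93 ± 0.36 to 3.73 ± 0.61 CPM (adjusted p 0.0169 by edgeR). Of 13 proliferation genes, none was called in any comparison. Of 14 thalamic neuron genes, Tcf7l2 fell from 1154 to 681 CPM and Rora rose from 498 to 651 CPM in Ctrl PMBSF (adjusted p 0.0301 and 0.0436 by edgeR). Of the 12 microglial, 8 GABAergic, 18 vascular, 14 meningeal and 7 ependymal genes tested, none was called in any comparison by edgeR. In Ctrl PMBSF against Ctrl ALBSF, though, all 14 meningeal genes had positive values, with a median of 1.36. At an unadjusted p under 0.05 by edgeR 8 of them were higher, against 6.1% of all genes. All 12 microglial genes had negative values there, with a median of -0.26. DESeq2 called 1 meningeal gene between the control territories (3.01% of all genes) and 7 between embWPC ALBSF and Ctrl PMBSF (0.423% of all genes). The replicate block called 5 between the control territories, all higher in PMBSF, against 2.43% of all genes. DESeq2 also called 1 microglial gene, lower in embWPC ALBSF than in Ctrl ALBSF, where it called 1.1% of all genes. In that comparison all 12 microglial genes (median -0.48) and all 8 GABAergic genes tested (median -0.63) had negative values. Of the meningeal genes 13 were negative and 1 positive, with a median of -0.78. The vascular genes were mixed, with 10 negative and 8 positive, and the ependymal genes had 5 negative and 2 positive values.

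The median coefficient of variation over the 35 genes was 13.3% in Ctrl ALBSF, 12.2% in Ctrl PMBSF and 17.3% in embWPC ALBSF, against 12.3%, 13.6% and 13.5% over all genes tested. Ctrl ALBSF library 1 was the highest of its group for 15 of the 24 astroglial genes, and Ctrl PMBSF library 1 was the lowest of its group for 13. Shares of all genes were not computed, so this is not shown to be particular to astroglial genes. Ctrl ALBSF library 1 also had the highest microglial (151.7), vascular (265.0) and proliferation (267.5 CPM) sums of its group. Its thalamic neuron (11740) and meningeal (21.9 CPM) sums were the lowest. Without Ctrl ALBSF library 1 the astroglial median between the control territories went from -0.12 to 0.00. The summed oligodendrocyte lineage level was 518 to 653 CPM in Ctrl ALBSF, 496 to 504 CPM in Ctrl PMBSF and 449 to 623 CPM in embWPC ALBSF, so the PMBSF libraries were alike and all below the ALBSF controls, while the embWPC libraries covered both ranges. Olig1 was the largest single contributor in every library. The sum of the 30 further lineage genes showed no such gap. It was 210.1 to 257.5 CPM in Ctrl ALBSF, 215.4 to 248.8 CPM in Ctrl PMBSF and 211.7 to 235.7 CPM in embWPC ALBSF. Gene by gene, 6 of the 22 tested were lower and 2 higher in Ctrl PMBSF than in Ctrl ALBSF at an unadjusted p under 0.05 by edgeR.

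**Figure D5:**
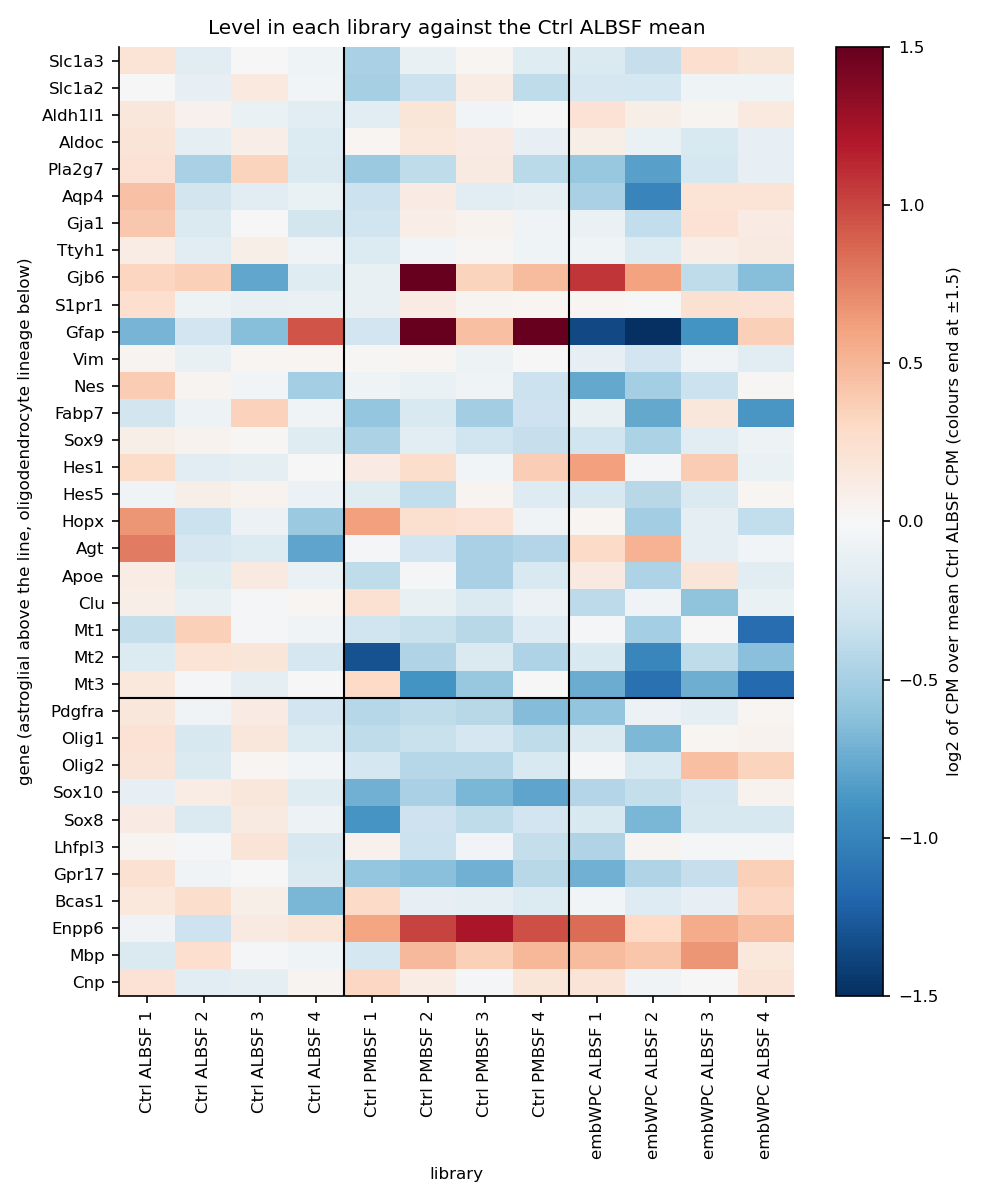
Log2 ratio of CPM in each library (columns) to the Ctrl ALBSF mean of the same gene (rows), with colours ending at ±1.5. The 6 early lineage genes from Pdgfra to Gpr17, other than Lhfpl3, are blue across Ctrl PMBSF, and Mt3 is blue across embWPC ALBSF.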

How the data were processed

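Poly-A RNA of 12 libraries was sequenced as paired reads of 150 nucleotides, with RNA integrity numbers above 8, per the labels' protocols. The deposited values are raw counts per Ensembl gene. The authors checked reads with FastQC 0.11.9, aligned them to GRCm39 with STAR 2.7.9a, and then used SAMtools 1.15 and featureCounts (Subread 2.0.1) with genes of Ensembl release 104. These tools come from the design text and, per the submitters' processing notes, mm10 is listed as well. Strand, multi-mapping and read pair settings are not given in the sources used here, and the authors' DESeq2 1.32 results were not used. Symbols and positions came from GENCODE mouse release 39, which held 54749 of the 55359 genes. No library repeats another: chi-square divided by its degrees of freedom was at least 14.0004 for each couple of libraries.

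Counts were fitted in R 4.3.3 with edgeR 4.0.16 (quasi-likelihood, group as the only term, all 12 libraries, filterByExpr, TMM), with Benjamini-Hochberg adjustment over 17501 genes and a threshold of 0.05, after a check on simulated counts. The fitted common dispersion (0.0249) corresponds to 15.8% biological variation. Differences are fitted log2 values with their SE. Alternatives were DESeq2 1.42.0, voom with quality weights in limma 3.58.1, other scalings, no count filter, only the 8 libraries compared, a replicate block and each library left out. Library numbers pair the control libraries, whose deviations from the group means correlated at 0.446, 0.317, 0.343 and 0.571 for numbers 1 to 4 over 13016 genes, each library best with its own number; they do not pair the embWPC libraries. Where nothing says how pools were made, p-values measure only the spread between these pools.

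All 35 members are named. From other lists, up to 4 called genes are named, and also the first 3 markers of thalamic neurons. Other cell types are given by the sums or calls of their lists, without naming their markers. The members and lists were chosen with earlier results of these data known, among them 1 rise and 1 fall among oligodendrocyte lineage markers between the control territories. Of 257 list symbols, 255 were matched.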

Additional observations from a re-analysis of the deposited data

Results flagged for a closer look

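In 6 of 111 groups of 4 libraries examined, for the 35 genes and their summed levels, the highest or lowest library lay so far from the other 3 that its gap exceeded 0.829 of the group's range. Chance gives about 1 in 20. In Ctrl ALBSF, Gfap was 0.8265 CPM in library 4 against 0.265 to 0.352 in the others. Vim was 112.9 CPM in library 2 of that group against 125 to 126, and S1pr1 was 27.39 CPM in library 1 against 21.4 to 21.9. Bcas1 was 10.97 CPM in Ctrl PMBSF library 1 against 7.85 to 8.26 in the others. In embWPC ALBSF, Sox8 was 8.075 CPM in library 2 against 10.99 to 11.04, and Lhfpl3 was 25.6 CPM in library 1 against 34.3 to 35.98. None of these genes was called in any comparison by edgeR's test on all 12 libraries with the count filter; without the filter Gfap was called in 2 comparisons (adjusted p 0.0367 for Ctrl PMBSF against Ctrl ALBSF and 0.0227 for embWPC ALBSF against Ctrl PMBSF).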

How the results depend on the processing

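Between the control territories, 2 of 35 genes were called; scaling by library totals called 1, no count filter 3 (Sox10, Gfap and Pdgfra, without Enpp6), DESeq2 3 (Sox10, Enpp6 and Pdgfra), the replicate block 6, and leaving out both control libraries numbered 2, an alternative chosen after seeing the data, 0. Over all genes, 284 were called, against 527 by DESeq2, 443 by voom, 857 with the replicate block and 104 without both libraries numbered 2. Scaling by totals gave 150 higher and 69 lower in place of 142 and 142. Leaving out 1 library gave 0 to 2 members, 127 to 249 genes, astroglial medians of -0.17 to 0.00 (-0.1719 to 0.002663) and lineage medians of -0.40 to -0.26. For embWPC ALBSF against Ctrl ALBSF, 0 members became 1 with no count filter, with DESeq2 and with only the 8 libraries compared, each time Mt3. The 11 genes called became 7 by totals, 121 with no filter, 181 by DESeq2, 75 by voom and 1 with the replicate block, and 1 to 22 without 1 library, with 0 members and medians of -0.20 to -0.07 and -0.17 to 0.00 (-0.1732 to -0.001826). For embWPC ALBSF against Ctrl PMBSF, no filter called 2 members (Gfap and Olig2). The 1 gene called became 72 with no filter, 74 by DESeq2, 0 with the replicate block and 1 to 3 without 1 library, with 0 members and medians of -0.07 to 0.13 and 0.08 to 0.21. No called value turned its direction in any alternative; of 1608 member values under the alternatives, 97 changed sign, all of them uncalled. The cause of these shifts was not tested.

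The replicate block changed calls of members in the control comparison only. The embWPC libraries share only numbers with the controls (correlations of -0.212, 0.115, 0.0790 and -0.192 with Ctrl ALBSF, and 0.0400, 0.0363, -0.0410 and -0.182 with Ctrl PMBSF). Gfap did not pass the count filter when only the 8 libraries of embWPC ALBSF and Ctrl ALBSF were fitted, so it has no value there with or without the block. Depth limits Gfap, Enpp6, Gjb6 and Mt2, which had 4 to 182, 18 to 66, 24 to 166 and 20 to 44 counts per library.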
